A study of Homo sapiens with 6 samples.

Results

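IL7R, the alpha chain of the interleukin 7 receptor, was studied with 7 related genes in OVCAR3 cells in which NUF2 was silenced. The group holds 5 receptor chains (IL7R, IL2RG, IL15RA, IL4R and IL13RA1) and 3 ligands (IL7, TSLP and IL15), and the 8 genes were taken by symbol from the 19973 genes listed. In IL7R the libraries with shNUF2 held 28.0 times the normalised counts of the control libraries, and IL2RG and TSLP stood at 2.25 and 2.06 times their control levels. IL4R and IL13RA1, which had the highest levels per gene length in control cells, stood at 0.948 and 0.887 times their control levels. The 8 genes were chosen by earlier results of this same comparison, so their values are given with no p-value, and the counts of them past a threshold are a description.

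OVCAR3 is an established line of human ovarian cancer cells, labelled wild type in both groups. One group was transfected with a negative control hairpin (shNC) and the other with a hairpin against NUF2 (shNUF2), in 3 RNA-seq libraries each, and no other agent, time or dose is labelled. The hairpins were carried on a puromycin vector under a U6 promoter. A single hairpin stands for the knockdown, and it is not given in the sources used here whether separate cultures lie behind the 3 libraries with 1 hairpin, so that p-values measure only the spread between these libraries. NUF2 is a subunit of the kinetochore complex that ties chromosomes to the spindle.

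The interleukin 7 receptor is built from IL7R and the common gamma chain, IL2RG, and binds IL7. With CRLF2 in place of IL2RG, the same IL7R chain binds TSLP, a cytokine made by epithelial cells. The common gamma chain is shared with the receptors for interleukins 2, 4, 9, 15 and 21, and IL4R pairs either with it or, in cells outside the blood, with IL13RA1. These chains have no kinase of their own and signal through bound JAK kinases to STAT factors, mainly STAT5 for IL7 and IL15 and STAT6 for IL4 and IL13. IL7R is best known in lymphocytes, where it supports survival and development.

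Shown first are the target of the hairpin, which defines the comparison, and the stretches before the starts of the 2 receptor chains that stood higher by more than 1 on the log2 scale. The hairpin target, 21 bases of NUF2 mRNA, lies in exon 4 of the 14 exons of a coding transcript of NUF2 (GRCh38, chr1:163328272-163328292, GENCODE release 29). An exact match of all 21 bases was found in 1 gene, NUF2, and in none (0) of the 8 genes described here. Partial matches were not searched for.
shNUF2 target: cttcttaccattcagcaattt
For IL7R and IL2RG the 250 bases before the RefSeq start are shown (GRCh38.p14), for IL7R from chr5:35856641-35856890 on the plus strand and for IL2RG from chrX:71111578-71111827 on the minus strand. Both windows lie inside the spans of the counted genes, chr5:35852695-35879603 for IL7R and chrX:71107404-71112108 for IL2RG. Each gene thus also has an annotated start upstream of the start used here. Capitals mark matches, on either strand, to a RUNX motif (TGTGGT), a FOXO motif (GTAAACA), an ETS motif (CCGGAAG) or a TATA box (TATAAA).
IL7R promoter: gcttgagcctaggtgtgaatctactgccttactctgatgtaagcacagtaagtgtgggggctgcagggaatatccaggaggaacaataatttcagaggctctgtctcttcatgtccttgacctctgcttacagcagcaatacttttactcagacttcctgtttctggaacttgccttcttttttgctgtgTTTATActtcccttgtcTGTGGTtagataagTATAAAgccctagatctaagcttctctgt
IL2RG promoter: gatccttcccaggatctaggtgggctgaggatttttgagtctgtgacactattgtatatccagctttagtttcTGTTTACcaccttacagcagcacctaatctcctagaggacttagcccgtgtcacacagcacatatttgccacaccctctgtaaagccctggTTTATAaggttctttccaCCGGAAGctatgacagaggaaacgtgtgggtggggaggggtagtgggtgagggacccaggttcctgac
The IL7R window had a GC content of 43.6% and 0 CpG dinucleotides. Among the 35116 windows of the same length in the table the median GC content was 58% with 11 CpG, and 6.06% of windows had no CpG. Its matches were a RUNX motif 43 to 38 bases before the start, found in 11% of all windows, and TATA boxes at 60 to 55 and 29 to 24 bases before the start, found in 10.7%. The IL2RG window had a GC content of 50% and 3 CpG, with a FOXO match at 177 to 171 (2.98% of windows), a TATA box at 86 to 81 and an ETS match at 68 to 62 bases before the start (8.52%). Neither window held the letters TTCNNNGAA for STAT factors (6.57% of windows), TTC and GAA with 4 bases between them for STAT6 (5.38%), TGANTCA for AP-1 (6.57%) or GGG, any 2 bases and TTTCC for NF-kB (1.73%). Windows were given for 6 of the 8 genes, and those of IL4R and IL13RA1 differed from that of IL7R in base composition, with GC contents of 80.8% and 75.6% and 35 and 28 CpG. The matches are letters in a window and were not tested as binding sites.

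The libraries held 13057534 to 16995452 counted reads, and 12874 genes passed the filter on low counts. NUF2 itself had 903, 1096 and 1092 reads in the control libraries and 281, 290 and 384 reads in those with shNUF2, which is 0.351 times the control level in normalised counts (CPM, counts scaled to a common library size by TMM) and a log2 fold change of -1.51 ± 0.08 (SE). The labelled cell type was set against 14 ovarian carcinoma epithelial markers, of which some were present and others near 0, and whose summed level of 6800 to 7310 CPM with shNC and 6110 to 6350 CPM with shNUF2 came mostly from FOLR1 (means of 5530 and 4470 CPM). Of 10 tested, 4 rose (KRT8 by 2.05-fold, KRT18, PAX8 and EPCAM) and 4 fell (MSLN and MUC16 both to 0.595 times, FOLR1 and KRT7), while WFDC2, WT1, KRT19 and SOX17 had few or no reads. EPCAM (3.39 and 5.45 CPM) and CDH1 (1.38 and 0.843 CPM) were low in both groups. The call of EPCAM was lost without shNUF2 replicate 1 (adjusted p = 0.078, edgeR), and that of KRT7, whose groups overlapped in CPM, with DESeq2's Wald test (adjusted p = 0.0742). A count of 0 allows up to 3 reads in that library, and such limits cover counting error only.

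IL7R (ENSG00000168685, chr5:35852695-35879603, plus strand, 6020 bp) had 63, 57 and 70 reads under shNC against 1528, 1526 and 1620 under shNUF2. In normalised counts these were 4.43, 3.57 and 4.07 CPM against 113, 117 and 108 CPM. The lowest library with shNUF2 lay far above the highest control library, and the libraries of each group lay close together. The means were 4.02 ± 0.434 CPM and 113 ± 4.87 CPM (SD, n = 3), and the log2 fold change was 4.81 with a standard error of 0.09. By log2 fold change IL7R stood at rank 49 from the highest of the 12874 genes tested. The counts are summed over the gene, whose annotation in GENCODE release 29 holds 10 transcripts, 6 of them coding, so that the membrane form and the soluble form cannot be told apart. Each library pools a whole culture, and more cells with the transcript and more transcript per cell cannot be told apart either.

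IL2RG (ENSG00000147168, chrX:71107404-71112108, minus strand, 2760 bp), the common gamma chain, had 10, 15 and 11 reads in control cells, compared with 28, 19 and 24 after NUF2 silencing. These were 0.703, 0.939 and 0.639 CPM against 2.08, 1.46 and 1.60 CPM, and the groups did not overlap. The means were 0.761 ± 0.158 and 1.71 ± 0.324 CPM (SD, n = 3), and the log2 fold change was 1.16 with a standard error of 0.37. IL2RG was the 1 gene of the 7 that passed the filter through the libraries with shNUF2 alone. IL2RG shares 1403 of its exonic bases with AL590764.2 on the same strand, which is listed at 0 reads in every library. How reads in shared exons were counted is not given in the sources used here, so the level of IL2RG is uncertain.

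IL7R has 2 known ligands, and both were read at low levels in these cells. IL7 (ENSG00000104432), which binds IL7R with IL2RG, had 27, 37 and 34 reads in the control libraries and 25, 30 and 33 reads in those with shNUF2. Its means were 2.06 ± 0.221 and 2.12 ± 0.236 CPM (SD, n = 3) with overlapping groups, and its log2 fold change was 0.04 with a standard error of 0.28. TSLP (ENSG00000145777, chr5:111070062-111078026, plus strand, 4263 bp), which binds IL7R with CRLF2, had 7, 6 and 7 reads under shNC against 13, 13 and 10 under shNUF2. TSLP was below the filter on low counts and received no fitted value. Its levels were 0.492, 0.375 and 0.407 CPM against 0.964, 1.00 and 0.665 CPM, so all 3 libraries with shNUF2 were higher, on very few reads.

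IL15 and IL15RA form a ligand and the chain that presents it on the cell surface to cells carrying IL2RB and IL2RG. IL15 (ENSG00000164136, chr4:141636583-141733987, plus strand, 7876 bp) had 149, 160 and 153 reads in control cells, compared with 153, 138 and 177 after NUF2 silencing. In normalised counts it was 10.5, 10.0 and 8.89 CPM against 11.4, 10.6 and 11.8 CPM, so that the groups were apart by a narrow margin. The means were 9.80 ± 0.815 and 11.2 ± 0.583 CPM (SD, n = 3), with a log2 fold change of 0.20 and a standard error of 0.13. IL15RA (ENSG00000134470, chr10:5943639-5978187, minus strand, 3633 bp) had 153, 149 and 185 reads against 100, 127 and 139 reads. Its groups overlapped, at 10.8, 9.32 and 10.8 CPM with shNC and 7.42, 9.77 and 9.24 CPM with shNUF2, and its log2 fold change was -0.22 with a standard error of 0.14.

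IL4R and IL13RA1 together form the receptor through which cells outside the blood respond to both IL4 and IL13. IL4R (ENSG00000077238, chr16:27313668-27364778, plus strand, 5884 bp) had 1190, 1250 and 1400 reads in the control libraries and 1030, 976 and 1189 reads in those with shNUF2. Its means were 81.1 ± 2.75 and 76.9 ± 2.02 CPM (SD, n = 3), the groups overlapped, and the log2 fold change was -0.08 with a standard error of 0.05. IL13RA1 (ENSG00000131724, chrX:118727133-118794535, plus strand, 4650 bp) had 1749, 2073 and 2183 reads under shNC against 1489, 1425 and 1752 under shNUF2. All 3 libraries with shNUF2 were lower, at 110, 110 and 116 CPM against 123, 130 and 127 CPM. The log2 fold change of IL13RA1 was -0.17 with a standard error of 0.05.

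**Figure D1:**
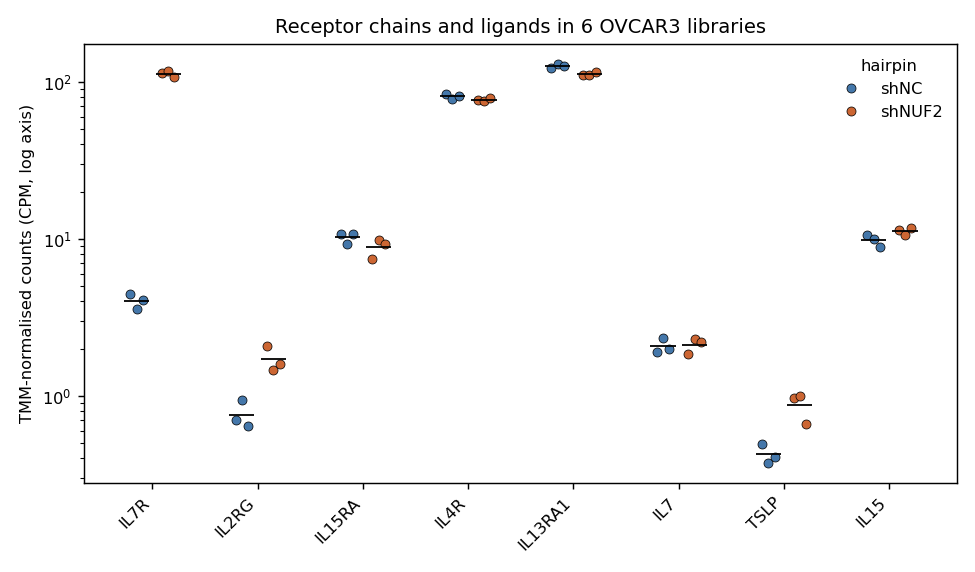
Normalised counts (CPM scaled by TMM, log axis) of the 5 receptor chains and 3 ligands, with 1 point per library, blue for shNC and orange for shNUF2, and a bar at each group mean. IL7R moves from 4.02 to 113 CPM between the group means, while IL4R, IL15RA and IL7 overlap between the groups.

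Of the 8 genes, 7 passed the filter on low counts, and 2 of them (IL7R and IL2RG) stood past the thresholds of the study in the higher direction. These were a fold change beyond 1, read here as a log2 fold change, with an unadjusted p under 0.05, taken here from edgeR's quasi-likelihood test. Over all genes 9.41% passed these thresholds in that direction and 4.16% in the lower direction, where 0 of the 7 stood. At a Benjamini-Hochberg adjusted p under 0.05 the fit placed 2 of the 7 higher, 1 lower (IL13RA1) and 4 in neither direction. Over all genes the shares at this threshold were 33.9% higher and 33.8% lower. The CPM of the groups did not overlap for 4 of the 8 genes in the higher direction (IL7R, IL2RG, TSLP and IL15) and 1 in the lower (IL13RA1), against 35.2% and 35.4% of all genes tested. Since these genes were chosen by this comparison, and IL2RG passed the filter through the libraries with shNUF2 alone, the counts describe them and nothing is read from the shares.

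Levels were compared between genes per gene length, in the deposited FPKM, which divide each count by the gene length and the library total. That length is near the merged exons of all annotated transcripts (for IL7R 6020 against 6060 bp). The order of genes therefore depends on the annotation too. With shNC the order of mean FPKM was IL13RA1 (27.6), IL4R (14.0), IL15RA (2.86), IL15 (1.26), IL7R (0.676), IL7 (0.616), IL2RG (0.279) and TSLP (0.101). Neighbours in this order did not overlap, except IL7R and IL7. With shNUF2 the order was IL13RA1 (23.8), IL7R (18.5), IL4R (12.9), IL15RA (2.39), IL15 (1.41), IL7 (0.617), IL2RG (0.611) and TSLP (0.203), and there IL7 and IL2RG overlapped. IL7R thus stood at place 5 of 8 with shNC and at place 2 with shNUF2, ahead of IL4R, and its mean FPKM exceeded that of 44.0% of all listed genes with shNC and of 87.7% with shNUF2.

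Chains of the same receptor were also set against each other within each library. The FPKM of IL7R was 2.89, 1.74 and 2.92 times that of IL2RG in the libraries with shNC, and 25.0, 36.8 and 30.9 times in those with shNUF2. The ratio was higher in each library with shNUF2 than in any control library, and its size is uncertain because of the exons that IL2RG shares with AL590764.2. For IL4R against IL13RA1 the ratios of FPKM were 0.538, 0.477 and 0.507 with shNC and 0.547, 0.541 and 0.536 with shNUF2. Against IL4R, a chain of the same family, IL7R stood at 0.0517, 0.0446 and 0.0489 times its FPKM with shNC and at 1.45, 1.53 and 1.33 times with shNUF2.

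**Figure D2:**
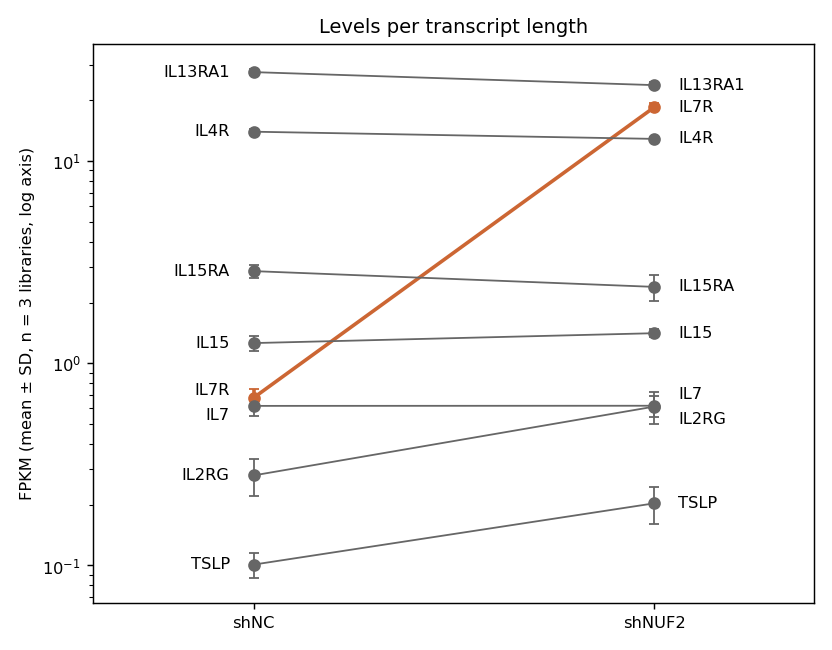
Mean FPKM of each gene (log axis, bars are the SD of 3 libraries) with shNC on the left and shNUF2 on the right, with a line joining the means of 1 gene. The line of IL7R, in orange, runs from 0.676 to 18.5 FPKM and crosses those of IL15, IL15RA and IL4R.

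The remaining receptor chains of the family were followed in a list of 6, of which 3 passed the filter (IL13RA2, IL2RB and CRLF2), and all 3 stood higher at an adjusted p under 0.05. IL13RA2 passed it through the libraries with shNUF2 alone and so could only stand higher, while IL2RB and CRLF2 passed it in both groups. IL13RA2, which binds IL13 with high affinity and is known mainly as a decoy, had 12, 4 and 9 reads in control cells, compared with 413, 379 and 338 after NUF2 silencing. It stood 50.9-fold higher in mean CPM, with a log2 fold change of 5.67 ± 0.22 (SE) and an adjusted p of 6.87e-18 (edgeR's quasi-likelihood test, Benjamini-Hochberg adjustment over 12874 genes, used for all adjusted p-values here). In FPKM it reached 18.4, 17.9 and 13.7 in the libraries with shNUF2, from 0.523, 0.157 and 0.326 with shNC. IL2RB, which pairs with IL2RG in the receptors for IL2 and IL15, had 25, 27 and 20 reads against 60, 55 and 43 reads and rose 2.50-fold (adjusted p = 0.000191, edgeR). CRLF2, the chain that joins IL7R to bind TSLP, had 13, 24 and 21 reads against 28, 29 and 28 reads. Its log2 fold change was 0.75 ± 0.33 (SE) with an adjusted p of 0.0458 by edgeR. This call was lost when any library except shNC replicate 2 was left out, with adjusted p-values up to 0.16. Over the 16 settings described at the end it held in 6.

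The other chains and ligands were at or near 0. IL2RA had 1 read in 1 library with shNUF2 and none elsewhere, IL21R had at most 2 reads in any library, and IL9R at most 1. Of 5 further ligands of the family, IL2, IL9 and IL21 were at 0 in all 6 libraries. IL4 had 1, 2 and 0 reads against 0, 1 and 0 reads, and IL13 had 0, 5 and 0 reads against 4, 3 and 2 reads, so neither ligand of IL4R and IL13RA1 was measurable at this depth.

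JAK kinases and STAT factors carry the signal of these receptors, and 10 of 11 were tested. In edgeR's test 2 rose, 4 fell and 4 did not pass, none (0) with a log2 fold change beyond 1 in either direction, and the median log2 fold change was -0.04 against -0.01 over all genes tested. STAT3 rose from 2587, 2995 and 2962 reads to 4190, 3944 and 4617 reads, which is 1.70-fold (adjusted p = 2.4e-14, edgeR). STAT5B, 1 of the 2 STAT5 genes, fell from 3085, 3350 and 3708 reads to 1856, 1847 and 2037 reads, at 0.647 times the control CPM (adjusted p = 1.75e-12, edgeR), while STAT5A had a log2 fold change of 0.07 ± 0.05 (SE). STAT6, the main factor downstream of IL4R, fell to 0.771 times its control level (adjusted p = 5.07e-08, edgeR). JAK3, the kinase bound to the common gamma chain, had 247, 280 and 280 reads against 182, 173 and 216 reads and fell to 0.805 times (adjusted p = 0.0136, edgeR). JAK1, bound to IL7R and IL4R, fell to 0.910 times (adjusted p = 0.00557, edgeR), and JAK2 had a log2 fold change of 0.02 ± 0.11 (SE). TYK2 stood at 0.12 ± 0.05 on the log2 scale with an adjusted p of 0.0497 by edgeR. That call was lost without shNC replicate 1 or 3 or shNUF2 replicate 1 or 3, with adjusted p-values up to 0.285. It was also lost with upper quartile scaling, library totals, no filter, DESeq2's Wald test and limma on log2 FPKM. Over the 16 settings described at the end it held in 6.

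Negative regulators of the pathway, among them the SOCS proteins that bind and shut off JAK kinases, numbered 20, of which 19 were tested, 10 rose, 2 fell and 7 did not pass. The median log2 fold change was 0.22, against -0.01 over all genes. SOCS1 had 1, 0 and 3 reads in the control libraries and 28, 31 and 20 reads in those with shNUF2, with a fitted log2 fold change of 4.38 ± 0.61 (SE). It passed the filter through the libraries with shNUF2 alone, so it is 1 of the 10 that had to stand higher, and the other 18 tested regulators passed it in both groups. SOCS2 rose 2.07-fold, from 301, 312 and 363 reads to 609, 495 and 670 reads (adjusted p = 3.86e-11, edgeR). CISH, a feedback gene of STAT5 signaling, had 47, 62 and 67 reads against 57, 53 and 51 reads, with overlapping groups and a log2 fold change of 0.07 ± 0.22 (SE). SOCS3 fell by 0.20 on the log2 scale (adjusted p = 0.00209, edgeR) although the groups overlapped in CPM. CBLB, a ubiquitin ligase that dampens receptor signaling, rose 2.25-fold, and SH2B3, PIAS2 and PIAS4 had log2 fold changes of 0.77, 0.65 and 0.64, all past the adjusted threshold in edgeR.

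Genes known as targets of STAT5 numbered 16, of which 14 were tested, 8 rose, 4 fell and 2 did not pass, with a median log2 fold change of 0.67 against -0.01 over all genes. The genes that rose include SOCS1 and SOCS2, already counted among the regulators, and SOCS1 was again the 1 gene that entered through the libraries with shNUF2 alone. BCL6, a repressor of transcription, rose 2.36-fold, from 198, 188 and 241 reads to 483, 353 and 460 reads (adjusted p = 1.65e-10, edgeR). MCL1, which protects cells from apoptosis, rose 1.99-fold from a level of 966 ± 101 CPM (SD, n = 3) to 1920 ± 152 CPM (adjusted p = 2.35e-14, edgeR). The kinases PIM1 and PIM2 rose by 0.94 and 0.82 on the log2 scale. The 4 that fell were CCND1 (-0.70), BCL2 (-0.39), CCND3 (-0.31) and SOCS3 (-0.20 on the log2 scale). Apart from SOCS3 these were named after their values were seen. The call of BCL2 was lost without shNC replicate 2 or 3 or shNUF2 replicate 1 or 2, with adjusted p-values up to 0.101 in edgeR. It was also lost with DESeq2's Wald test and with limma on log2(FPKM + 0.1). Most of these genes answer to other signals too.

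Genes known to respond to IL4 and IL13 in epithelium numbered 22, of which 10 were tested, 6 stood higher at an adjusted p under 0.05, 0 lower and 4 did not pass (ALOX15, MUC5AC, SPDEF and CISH). The list was written when the increases of SERPINB2 and SERPINB4 and the entry of CCL26 in the study's tables were already known, so its count is not independent evidence of a direction. The median log2 fold change was 3.18, also with SERPINB2 at its lower bound. All 6 genes that stood higher passed the filter through the libraries with shNUF2 alone and could only stand higher, so neither the count nor the median is read as a direction of the list. SERPINB2, an inhibitor of plasminogen activators, was at 0 reads in all 3 control libraries and at 79, 56 and 66 reads with shNUF2, which is at least 25.4-fold higher against a floor of 3 reads per control library. SERPINB4 had 1, 2 and 0 reads against 76, 81 and 70 reads, and its neighbour in the family SERPINB3 had 2, 0 and 9 reads against 77, 91 and 65 reads. SERPINB3 and SERPINB4 are near-identical copies, and how reads shared between them were split is not known here. The chemokine CCL22 had 1, 3 and 0 reads against 14, 16 and 14 reads (adjusted p = 5.58e-05, edgeR), and CCL26, named after its values were seen, had 0, 2 and 10 reads against 14, 25 and 38 reads. MUC5AC, a mucin of airway epithelium, had 147, 184 and 194 reads against 145, 114 and 169 reads. POSTN had 2 reads in 1 library with shNUF2 and CLCA1 none, so these airway responses could not be followed.

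**Figure D3:**
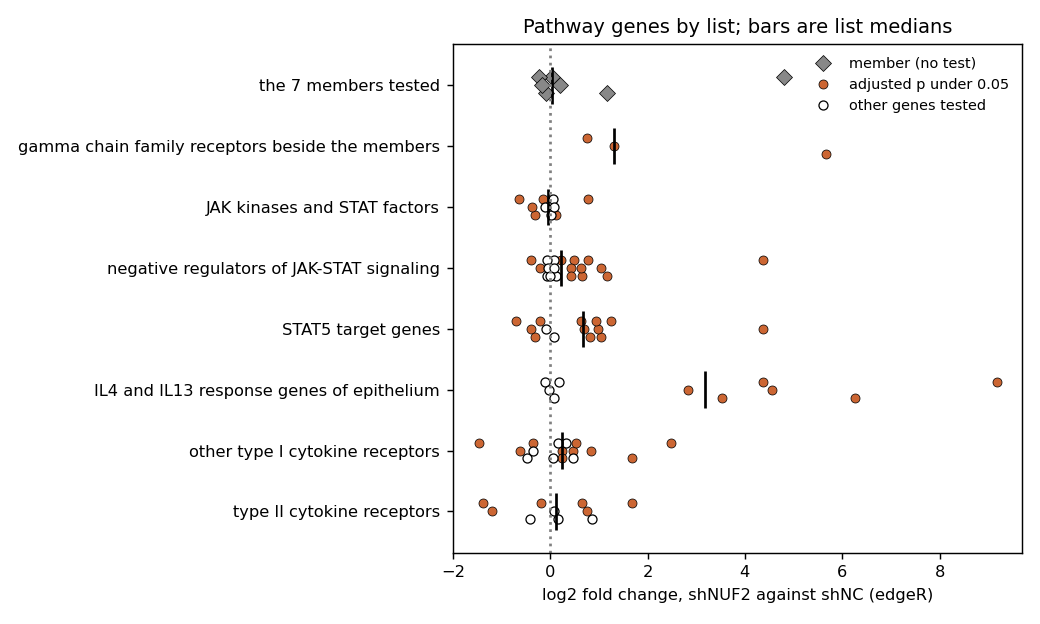
Log2 fold change (edgeR, shNUF2 against shNC) of every tested gene of the lists, with 1 point per gene, filled orange at an adjusted p under 0.05, open otherwise, and grey diamonds for the 7 tested genes described first, which carry no test. Black bars are medians, at -0.04 for JAK and STAT genes, 0.22 for negative regulators, 0.67 for STAT5 targets and 3.18 for the 10 response genes of IL4 and IL13.

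**Figure D4:**
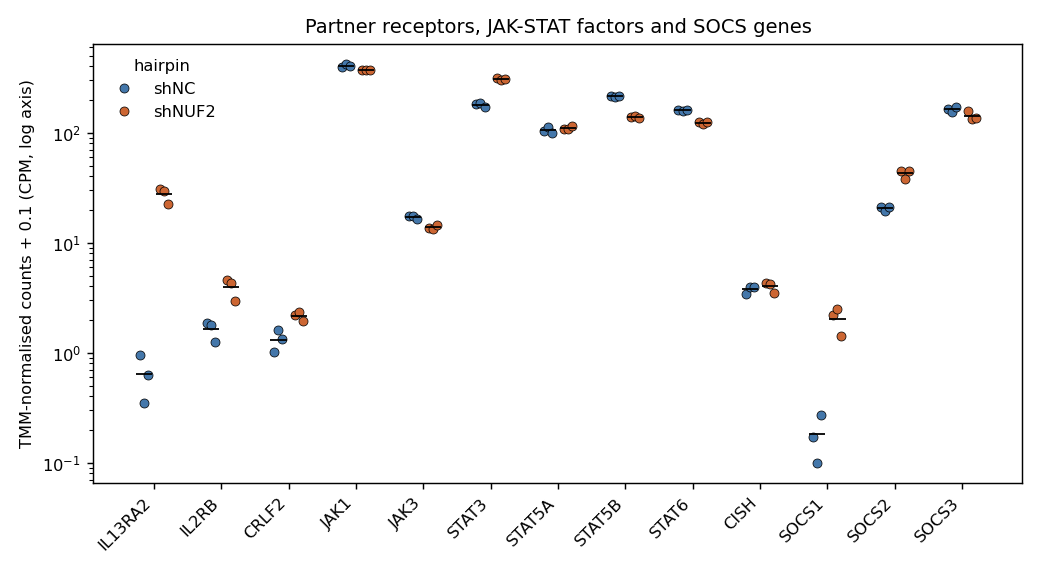
Normalised counts plus 0.1 (CPM scaled by TMM, log axis) of partner receptors, JAK and STAT genes and SOCS genes, with 1 point per library, blue for shNC and orange for shNUF2, and a bar at each group mean. IL13RA2 and SOCS1 stand far higher with shNUF2, STAT5B and STAT6 stand lower with shNUF2, and CISH and STAT5A overlap.

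Among 24 further type I cytokine receptors, the structural family to which IL7R belongs, 16 were tested, 7 rose, 3 fell and 6 did not pass, with a median log2 fold change of 0.24 against -0.01 over all genes. Of all genes tested 33.9% rose and 33.8% fell at this threshold, and nothing particular to this or the other lists is read from their counts. IL6R, the receptor chain for IL6, had 124, 109 and 109 reads against 594, 492 and 599 reads and rose 5.56-fold (adjusted p = 1.66e-16, edgeR). IL31RA, which shares OSMR as its partner, rose 3.24-fold, and LEPR, the leptin receptor, rose by 0.83 on the log2 scale. CSF2RA, the alpha chain for GM-CSF, fell from 646, 798 and 853 reads to 182, 237 and 306 reads, at 0.359 times (adjusted p = 9.93e-13, edgeR). The log2 fold change of 4.81 of IL7R was higher than that of any of these 16 receptors, and in the wider family IL13RA2 alone stood above it. Among 12 type II receptors, the interferon and IL10 families with tissue factor, 10 were tested, 3 rose, 3 fell and 4 did not pass, with a median of 0.12. F3, tissue factor, rose 3.21-fold, IFNGR2 had a log2 fold change of 0.75, and IL20RB fell to 0.440 times. IL20RA had a log2 fold change of -1.37 ± 0.46 (SE), from a gene that passed the filter through the control libraries alone and could only stand lower, and its call was lost without shNC replicate 3 or shNUF2 replicate 2, with an adjusted p of up to 0.0667 in edgeR.

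Since IL7R is known from lymphocytes, 24 lymphocyte markers were read beside it. CD3D, CD3G, CD2, CD8B, MS4A1 and RAG2 were at 0 in all 6 libraries, and CD3E had 1 read in all. The summed level of the 24 markers was 2.62 to 3.44 CPM with shNC and 7.42 to 9.69 CPM with shNUF2. Of the 24 markers 3 passed the filter, 2 of them (RAG1 and CD7) through the libraries with shNUF2 alone, so that these could only stand higher and their calls say nothing on direction. RAG1 and CD7 had 13, 5 and 9 against 16, 14 and 24 reads and 0, 4 and 8 against 12, 10 and 12 reads, and both calls were lost when single libraries were left out, RAG1 without shNC replicate 2 or 3 or shNUF2 replicate 3, and CD7 without shNC replicate 1 or 2 or shNUF2 replicate 1. Of 10 myeloid markers 1 was tested and did not pass, at 0.914 to 2.03 against 2.33 to 3.85 CPM in sum. The sum of 12 fibroblast and endothelial markers was 85.7 to 93.6 CPM with shNC and 73.3 to 80.7 CPM with shNUF2 and came mostly from COL1A1 (means of 81.7 and 62.4 CPM), with DCN higher and COL1A1 lower in edgeR's test, and CDH5 higher after passing the filter through the libraries with shNUF2 alone. What these markers add to the values of the receptor chains was not tested.

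The genes next to each of the 8 on the chromosome were also followed. Beside IL7R, SPEF2, 38.1 kb away on the side of lower coordinates, had 541, 603 and 612 reads under shNC against 665, 629 and 742 under shNUF2, a rise of 0.40 ± 0.07 (SE) on the log2 scale (adjusted p = 9.47e-06, edgeR). CAPSL, 24.7 kb away on the other side, had no read in the control libraries and 11, 2 and 8 reads with shNUF2, below the filter. Both neighbours were thus higher with shNUF2, though SPEF2 by far less than IL7R and CAPSL on few reads. Beside IL2RG, MED12 at 6.45 kb had a log2 fold change of 0.46 (adjusted p = 1.84e-07, edgeR) and CXorf65 was at 0 reads. Beside IL15, INPP4B at 289 kb rose 2.98-fold from 19, 20 and 20 reads to 37, 64 and 53 reads, while IL15 itself stood at 1.15 times. ZNF330, on the other side of IL15, had a log2 fold change of 0.48 (adjusted p = 3.2e-06, edgeR). PKIA, 70.5 kb from IL7, had 8, 5 and 1 reads against 17, 17 and 12 reads and a fitted log2 fold change of 1.87 ± 0.55 (SE), the largest of the neighbours tested, after passing the filter through the libraries with shNUF2 alone. On the other side of IL7, STMN2 was at 0 reads, and ZC2HC1A, which overlaps IL7, had a log2 fold change of -0.10 ± 0.19 (SE). SLC25A46 beside TSLP and DOCK11 beside IL13RA1 had log2 fold changes of -0.12 and 0.21 and did not pass, and ZCCHC12, also beside IL13RA1, had at most 4 reads in any library. FBH1 beside IL15RA and WDR36 beside TSLP had log2 fold changes of -0.44 and -0.30, both past the adjusted threshold in edgeR. NSMCE1 beside IL4R had one of -0.25. IL2RA and IL21R, family members that neighbour IL15RA and IL4R at 32.5 and 37.4 kb, were at or near 0 as given above.

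The genes whose pattern was most like that of IL7R were found by the root mean square difference of centred log2 CPM (prior count of 2) over the 6 libraries, among all genes tested. They were MRGPRX3 at 0.14, IL33 at 0.175, SERPINB2 at 0.271, MARCHF4 at 0.279 and IL1RL1 at 0.313. MRGPRX3 had 0 reads in the control libraries and 40, 44 and 43 reads with shNUF2, and MARCHF4 had 0 and then 37, 29 and 50 reads. IL33, a cytokine of epithelial cells, had 3, 2 and 5 reads against 134, 137 and 142 reads, and IL1RL1, its receptor, had 0, 1 and 0 reads against 42, 62 and 58 reads. All 5 had fewer reads than IL7R in every library and passed the filter through the libraries with shNUF2 alone. With so few control reads the measure depends on the prior count.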

How the data were processed

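RNA-seq of OVCAR3 cells, 3 libraries with shNC and 3 with shNUF2, was analysed from 1 deposited table of 19973 genes. RNA was extracted with TRIzol, and libraries were made with a stranded TruSeq mRNA kit and sequenced on a NovaSeq instrument. The submitters' processing notes name cutadapt, HISAT, HTSeq and GRCh38.p13, with no roles. Versions, strand setting and annotation release are not given in the sources used here, so reads on overlapping genes cannot be assigned with certainty. The authors deposited read counts per gene without normalization and FPKM values, which equal the count over gene length and library total to a relative deviation of 2.71e-07. Every per-sample column was used. Groups were taken from the sample labels.

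Counts were fitted with edgeR 4.0.16 in R 4.3.3 (filterByExpr, TMM, quasi-likelihood test, no covariate, 6 libraries in 1 fit, 12874 genes), and p-values were adjusted by Benjamini-Hochberg over these genes. Standard errors are the log2 fold change over the square root of F. CPM are counts scaled to the TMM-adjusted library size. The biological coefficient of variation was 4.93%. Libraries of a group differed by more than sampling noise and were all kept. The members and gene lists were chosen with earlier results of these data known, so members carry no p-value. The genes named are the members, NUF2, partner chains and JAK, STAT and SOCS genes whatever their values, up to 4 further genes per list with the largest change at an adjusted p under 0.05, the nearest listed gene on each side of a member, and the 5 genes most like IL7R. Exceptions are marked where they stand. Sequences were read from RefSeq promoter windows (GRCh38.p14), in which 6 of the 8 members matched by symbol, and from the study's hairpin table, matched to GENCODE release 29 transcripts. Alternatives were DESeq2 size factors and its Wald test (DESeq2 1.42.0), upper quartile and library totals, no filter or 1 CPM in every library, a block for the replicate number, fits without each library, and limma 3.58.1 on log2 FPKM with pseudocounts of 1 and 0.1. Scripts were tested on simulated data. Python 3.11.15 was used outside R. The study's PCR, protein, animal and tissue measurements were not analysed here. Some genes of the lists are not reported here by name.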

Additional observations from a re-analysis of the deposited data

How the results depend on the processing

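The direction of IL7R, IL2RG, IL15, IL15RA, IL4R and IL13RA1 was kept in the main fit and all alternatives that gave a value, while IL7, at 0.04 on the log2 scale, ranged from -0.03 to 0.13. IL7R ranged from 4.73 to 4.87 with each library left out, and IL2RG from 1.00 to 1.34. On log2 FPKM with pseudocounts of 1 and 0.1 (limma), IL7R stood at 3.54 and 4.59 and IL2RG at 0.33 and 0.91, since a pseudocount lowers the difference of a gene with few reads. The higher pseudocount also put IL15 at 0.09. TSLP had a log2 fold change of 1.00 ± 0.62 (SE) with no filter and of 0.95 to 1.20 in the fits without single libraries that kept it.

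With 1 CPM in every library required, genes under it in any library were not tested, IL2RG and IL13RA2 among them. The tested response genes of IL4 and IL13 then numbered 3, of which 0 passed against 6 of 10, and the family receptors 1, of which 1 passed against 3. Genes past the study thresholds in the higher direction numbered 756 under that filter and 430 with limma on log2(FPKM + 1), against 1212, and in the lower direction 206 with limma on log2(FPKM + 1), against 536. With each library left out these counts were 1198 to 1332 higher and 534 to 581 lower. For type I receptors outside the family the count at an adjusted p under 0.05 was 7 to 10 without single libraries, against 10, and for type II receptors 4 to 7, against 6, with 4 reached without shNUF2 replicate 2. Of 65 list genes at an adjusted p under 0.05, 45 kept the call in all 16 settings.

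Libraries that share a replicate number did not deviate together (correlations of 0.02, 0.00 and -0.03). The labels do not say whether the numbers pair the groups, and these correlations cannot settle it. With the number as a replicate block IL7R stood at 4.81, IL2RG at 1.16 and IL13RA1 at -0.17, and the count of family receptors fell from 3 to 2 as CRLF2 reached an adjusted p of 0.0592 (edgeR). Low counts limit TSLP, IL2RG and IL7 most.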
